A study of Fragaria x ananassa with 4 samples.

Results

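Aroma functions of the strawberry receptacle, the last reduction step towards the furanone furaneol and the joining of acyl groups to alcohols to form esters, were followed through 4 array entries. The entries are FaQR, gene28407, gene34009 and gene07931, chosen by these names from the 35116 gene models and named genes on the array. The study gives the name FaQR to gene28407, FaAAT1 to gene34009 and FaAAT2 to gene07931. The array also carries a separate entry called FaQR, which has no description of its own. The entries were taken by name, but the study had picked the gene models partly for being higher in red receptacle on this array, so their direction below is not independent evidence.

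Furaneol, which smells of caramel, is made in ripe strawberry from a sugar phosphate, and a quinone oxidoreductase (FaQR, also described as an enone oxidoreductase) reduces the exocyclic double bond of its precursor. Alcohol acyltransferases, enzymes of the BAHD family, transfer an acyl group from a coenzyme A thioester to an alcohol and so form the volatile esters that dominate the fruity note of strawberry. Both reactions are known from ripening receptacle, the swollen flower base that forms the flesh of the fruit and bears the achenes.

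Transcripts were measured in receptacle of Fragaria x ananassa on 1-colour Agilent arrays, with 2 samples of red ripe receptacle and 2 of green unripe receptacle. No transgene, silencing construct or treatment is named for any of the 4 samples, and the labels give each only as mature or immature fruit. The study's methods place the stages at small-sized green fruit (G1) and full-ripe red fruit (R) of cultivar Camarosa from the field, whereas the sample descriptions speak of a growth chamber followed by a greenhouse. The methods describe RNA from independent pools of fruits freed of achenes and the labels RNA from independent fruits, but neither says which pool went on which array. The p-values cover only the spread between these samples.

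An array carried 61657 non-control spots, from 35337 probes, of which 23658 to 24374 were well above background. Values are given as log2 of the processed signal relative to the 75th percentile of the same array, so that 0 is the brightness of a spot at that percentile. The percentile itself was 671 on red 1, 509 on red 2, 390 on green 1 and 347 on green 2, and 0 spots were saturated. Red 1 lay on a slide of its own, with a scan of its own, whereas red 2 shared a slide with both green samples. FaMYB10 (gene31413), a regulator of ripening in the receptacle, was higher in red by 7.63 (SE 0.06, limma, adjusted p = 3.15e-05). All 14 measured chlorophyll-binding proteins were lower, against 35.0% of all genes tested. Their summed level was 2.08 and 2.01 times the percentile in red and 204 and 207 times in green. Of 20 measured genes caught by keywords for seed proteins of the achene, such as oleosins, 15 were higher (75%, against 37.8% of all genes tested). Another 3 were lower (15%, against 35.0%). The keywords also caught genes such as gene21618, whose description includes an extensin-like protein. The summed level of the 20 was 21.6 and 22.5 in red and 9.27 and 10.3 in green. Of the 21 on the array, 19 were well above background on each green array. The part of achene tissue in the aroma genes was not tested. In such bulk samples, a change in the number of cells of a type and a change in RNA per cell cannot be told apart.

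The study lists primers for quantitative PCR of the gene models, a method it used to check its array comparison of silenced receptacle. Its red and green values of these genes come from arrays, not from this PCR. The primers are shown as a description only. Whether they tell close relatives apart was not tested. They are given 5′ to 3′, forward before reverse, and each is 20 bases long. The study's primer list was searched only for the gene models and not for the entry called FaQR, so no primer is printed for that entry.
gene28407 forward: gaagctgctagccttccctt
gene28407 reverse: agcacccaaggttctcaaca
gene34009 forward: acaagcttaccctgctcgac
gene34009 reverse: tcgagcctcaaggtatggga
gene07931 forward: gaagacgacgcgcaaatctc
gene07931 reverse: gctccggctagtccaatgtt

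All 4 aroma entries were higher in red than in green receptacle, by 29.6-fold to 108-fold. Of the 25018 genes tested, 37.8% were called higher in red and 35.0% lower at an adjusted p under 0.05, so being called is in itself common here. A rise of at least 16-fold, which all 4 entries passed, was reached by 1.87% of the genes tested. That share is a description only, because the limit lies below all 4 rises. The study's own choice of gene models also asked for a log2 change above 2. The median change of all genes tested was 0.04 on the log2 scale. Of the genes called, 51.9% were higher with this scaling, against 68.6% in the study's RMA matrix, 68.9% when arrays were scaled on their median and 40% after normexp background correction, and the 4 entries were called higher under each of these.

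**Figure D1:**
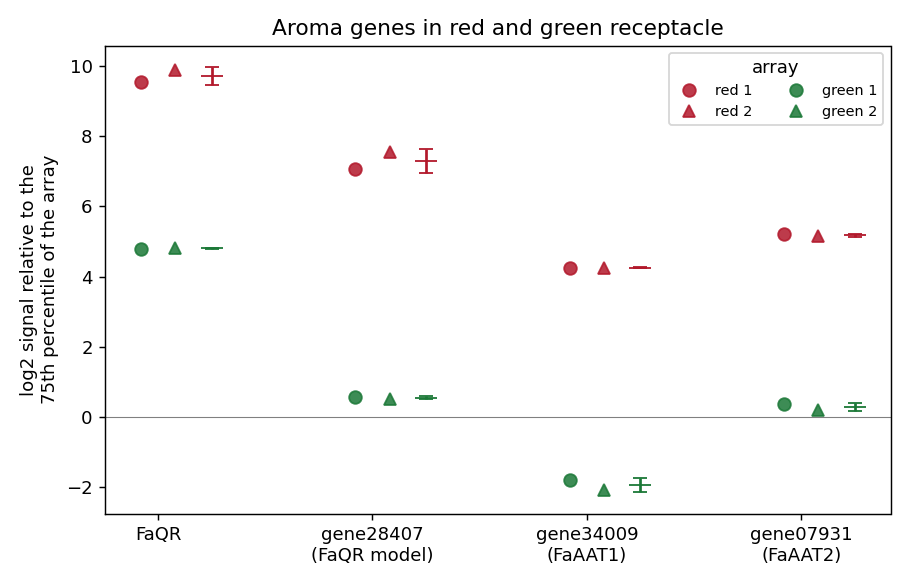
Log2 signal relative to the 75th percentile of the array (vertical axis) of FaQR, gene28407, gene34009 and gene07931 on each of the 4 arrays. Red symbols are red receptacle and green symbols green receptacle, circles are replicate 1 and triangles replicate 2, and the crossbars to the right give the mean and SD of the 2 samples of a stage. For every entry both red values lie above both green values, with the widest gap for gene28407 (7.06 and 7.54 against 0.58 and 0.51).

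Among the furanone genes, gene28407, described on the array as a quinone oxidoreductase-like protein, had log2 levels of 7.06 in red 1, 7.54 in red 2, 0.58 in green 1 and 0.51 in green 2. Both red samples lay far above both green samples, and the spread was wider between the red samples (SD 0.34) than between the green ones (SD 0.05, n = 2 each). The difference was 6.75 on the log2 scale (SE 0.19), a 108-fold change, with an adjusted p of 7.79e-05 in limma. It was the 79th largest increase among the 25018 genes tested. On the single spot of this gene the processed signal was 89570 and 94710 in red and 583 and 496 in green, and the green signals were still 26.1 and 21.5 times the local background. Neither stage was therefore at the floor of the measurement.

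The entry called FaQR had log2 levels of 9.54 in red 1, 9.89 in red 2, 4.79 in green 1 and 4.82 in green 2. The stages did not overlap, and the green samples were close to each other (SD 0.02), whereas the red ones differed more (SD 0.25). Its level rose by 4.91 (SE 0.14), or 30.0-fold, with an adjusted p of 8.63e-05 in limma, and it ranked 252nd by increase. The signal was strong in both stages, at 498547 and 483138 in red and 10823 and 9813 in green as the mean of its 2 spots. In red receptacle only 3 spots on red 1 and 4 spots on red 2 were brighter than its brighter spot, which reached 90.2% and 84.2% of the highest signal on those arrays. In green receptacle 1154 and 1165 spots were brighter.

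**Figure D2:**
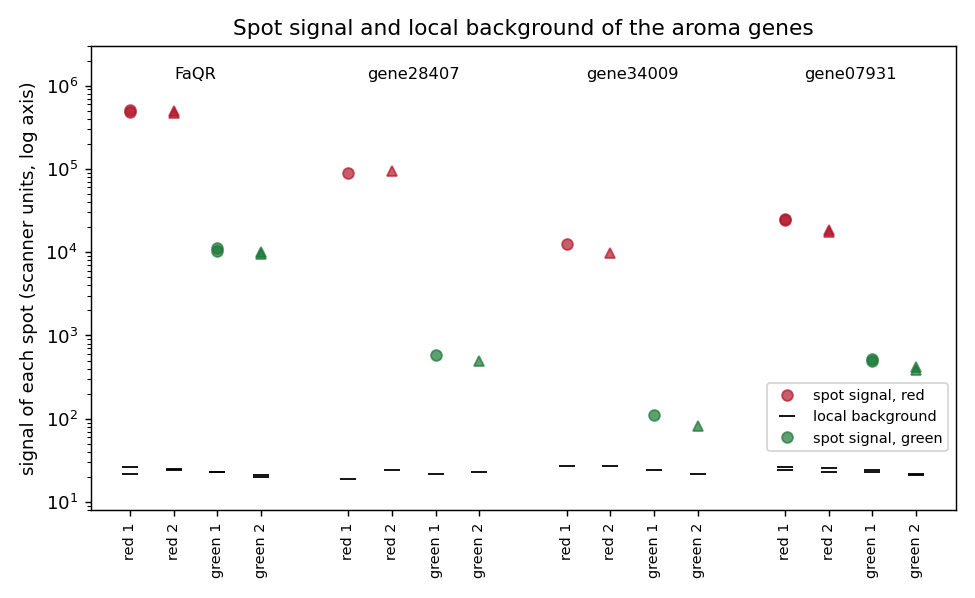
Processed signal of every spot of the 4 entries (vertical axis, scanner units, log axis) on each array, with the local background as black bars. FaQR and gene07931 have 2 spots and the others 1. The red signals of FaQR stand (498547 and 483138 as means of the spots) at the top of the range, and the dimmest signals, those of gene34009 in green receptacle (112 and 81.9), stay above the background.

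The rise of FaQR was smaller than that of gene28407. Within an array, FaQR exceeded gene28407 by 2.48 and 2.35 on the log2 scale in the red samples and by 4.21 and 4.31 in the green samples. The height of such a difference depends on the probes and does not compare transcript amounts, but its shift between stages does not depend on how whole arrays are scaled. The shift was -1.85, a 3.59-fold smaller rise for FaQR, and the red and green values did not overlap. With 2 samples against 2 the exact permutation test (two-sided) gave p = 0.333, the smallest it can give. The shift ranged from -1.91 to -1.57 over 12 other settings. Some of these, such as median scaling and other probe filters, cannot change a difference between 2 single-probe entries.

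FaQR was among the brightest probes of the red arrays, so the ratios between these arrays are given beside this value. From red 2 to red 1 the 75th percentile of the array rose by a factor of 1.32, and the 876 probes with signals between 8000 and 30000 on both red arrays had a median ratio of 1.31. The ratio was 1.21 at the median of the 107 probes above 80000 and 1.04 at the median of the 6 probes above 300000. FaQR had a ratio of 1.03 and gene28407 a ratio of 0.95, below that of the percentile. The acyltransferases were close to it, with 1.30 for gene34009 and 1.37 for gene07931. The part of these lower ratios at high signals in the smaller rise of FaQR was not tested, and whether the FaQR and gene28407 probes read the same transcript was not tested either.

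**Figure D3:**
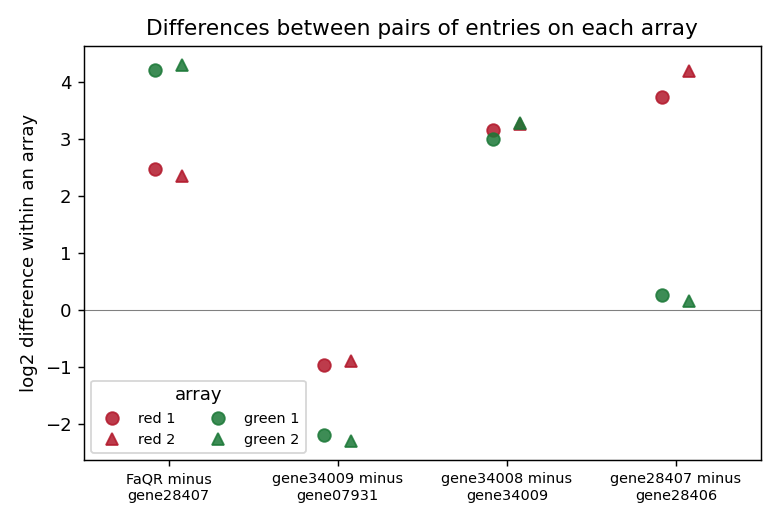
Log2 difference between pairs of entries on the same array (vertical axis), with red and green symbols for the stages, circles for replicate 1 and triangles for replicate 2. The difference of FaQR from gene28407 is lower in red (2.48 and 2.35) than in green (4.21 and 4.31), that of gene34009 from gene07931 is higher in red (-0.96 and -0.89) than in green (-2.18 and -2.29), and that of gene34008 from gene34009 overlaps between stages.

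Of the gene models numbered next to gene28407, gene28406, described as a ripening-induced protein, had log2 levels of 3.32 and 3.35 in red and 0.31 and 0.35 in green. It rose by 3.01 (adjusted p = 5.08e-05 in limma), and gene28410, without a description, rose by 1.31 (adjusted p = 0.00831). The difference of gene28407 from gene28406 within an array was 3.74 and 4.19 in red and 0.27 and 0.16 in green, a pair chosen after its values were seen. The rise of gene28407 was thus 13.4-fold larger than that of its neighbour. Actin-related gene28405 was at -3.10 and -3.26 in red and -3.59 and -4.15 in green and did not pass the test (adjusted p = 0.0507), and gene28404, gene28408 and gene28409 were left out as dim.

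Among 18 measured genes described as quinone or furanone reductases, gene28407 included, 10 were higher in red, 4 lower and 4 did not pass the test, with a median change of 0.29, or 0.21 without gene28407. That is 55.6% higher and 22.2% lower, against 37.8% and 35.0% of all genes tested. The median lies close to that of all genes tested. The largest change belonged to gene28407 itself. The NADPH quinone oxidoreductase gene14266 rose by 4.12, from 0.54 and 0.50 in green to 4.62 and 4.66 in red (adjusted p = 3.51e-05). Among the alkenal reductases, gene10142 was at least 9.75-fold higher in red, being not well above background in green (adjusted p = 0.00162), and gene23784 fell by 2.94 (adjusted p = 1.17e-04).

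Genes for the furanone precursor and its methylation were taken as fructose-bisphosphate aldolases and caffeic acid O-methyltransferases, the latter because an enzyme of this kind methylates furaneol in strawberry. Of 11 measured, 8 were higher (72.7%, against 37.8% of all genes tested) and 3 lower (27.3%, against 35.0%), with a median of 0.44. The aldolase gene01653 fell by 6.89, from 5.06 and 5.18 in green to -1.74 and -1.79 in red (adjusted p = 3.15e-05). Methyltransferases came next. The level of gene23762 rose by 3.82 (adjusted p = 5.13e-05), whereas gene18606 was at least 37.4-fold lower (adjusted p = 8.70e-05) and gene09396 at least 6.06-fold lower (adjusted p = 4.58e-05), both being not well above background in red. For gene23762, enzyme class 2.1.1.146 is a stronger match than caffeic acid O-methyltransferase, and the description of gene09396 gives this class too. Whether any of these genes acts on furaneol was not tested.

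Of the ester genes, gene34009, the model called FaAAT1, had log2 levels of 4.24 in red 1, 4.26 in red 2, -1.80 in green 1 and -2.09 in green 2. The red samples were nearly equal (SD 0.01), the green ones less so (SD 0.20), and the stages were far apart. The difference was 6.19 (SE 0.12), or 73.2-fold, with an adjusted p of 4.44e-05 in limma, the 106th largest increase. Its processed signal was 12691 and 9734 in red and 112 and 81.9 in green. The green signals were the dimmest of the 4 entries, at 6.27 and 5.07 times the local background. Over the 17 other settings its rise varied the most of the 4 entries, from 5.68 after normexp correction to 6.69 in the RMA matrix, and it passed the test in each.

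The model called FaAAT2, gene07931, had log2 levels of 5.20 in red 1, 5.15 in red 2, 0.38 in green 1 and 0.21 in green 2. Its descriptions include an alcohol acyltransferase and a benzyl alcohol benzoyl transferase. Spread was small in both stages (SD 0.04 in red and 0.12 in green) against a difference of 4.89 (SE 0.09), or 29.6-fold, with an adjusted p of 4.29e-05 in limma. It ranked 258th by increase, 6 places after FaQR. The mean signal of its 2 spots was 24739 and 18072 in red and 507 and 401 in green, all well above background.

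**Figure D4:**
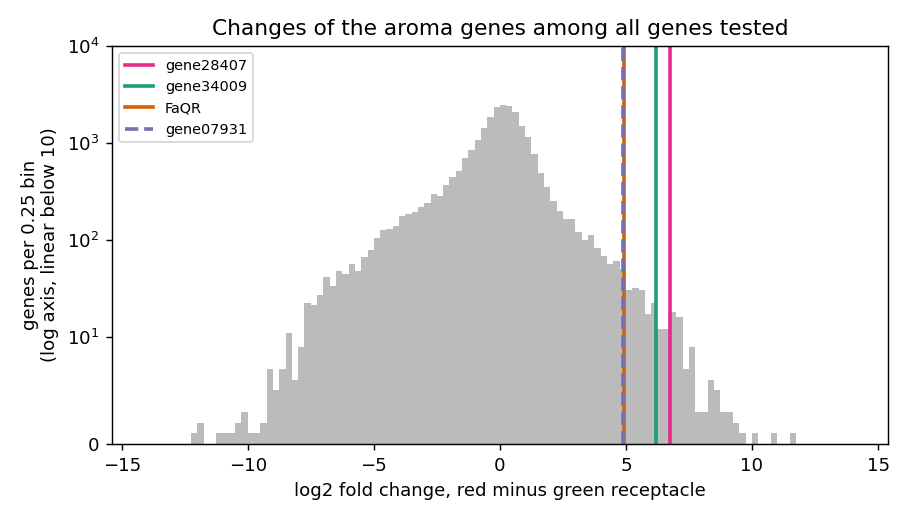
Number of genes (vertical axis, log axis that is linear below 10) by log2 fold change between red and green receptacle (horizontal axis) for the 25018 genes tested, with lines at the 4 aroma entries. All 4 lie in the right tail, FaQR (4.91) and gene07931 (4.89) nearly together and gene34009 (6.19) and gene28407 (6.75) farther out.

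The rise of gene34009 was larger than that of gene07931. The difference of gene34009 from gene07931 within an array was -0.96 and -0.89 in red and -2.18 and -2.29 in green. It shifted by 1.31, or 2.48-fold, without overlap between the stages, and the exact permutation test (two-sided, 2 samples against 2) again gave p = 0.333, the smallest possible. The shift was between 0.90 and 1.50 over 12 other settings, the lowest value coming from the normexp correction. Again, some of these settings cannot change it. In green receptacle gene34009 was only 6.27 and 5.07 times the local background, and the part of this dim signal in the size of the shift was not tested.

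The gene models numbered around gene34009 rose with it. The acyltransferase gene34008 had log2 levels of 7.41 and 7.53 in red and 1.21 and 1.20 in green, a rise of 6.27 (adjusted p = 3.15e-05). The next models, gene34010 and gene34011, rose by 6.26 (adjusted p = 3.15e-05) and 6.10 (adjusted p = 4.11e-05), and both are described as alcohol acyltransferases. Within an array gene34008 exceeded gene34009 by 3.16 and 3.27 in red and by 3.01 and 3.28 in green, values that overlap (a pair chosen after its values were seen). Copies of this kind may be nearly identical in sequence, and a probe of one may then also bind transcripts of another, so their separate values are uncertain. Farther out, gene34006 fell by 1.43 (adjusted p = 6.87e-04) and gene34012 was at least 3.57-fold lower in red (adjusted p = 8.37e-04), neither with a description, and gene34007 was left out as dim.

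Next to gene07931 no acyltransferase was found among the models numbered within 3 of it. Its neighbour gene07932, which has no description, had log2 levels of 2.14 and 2.12 in red and -2.11 and -2.01 in green and rose by 4.20 (adjusted p = 3.98e-05). The GPI-anchored protein gene07934 rose by 1.08 (adjusted p = 7.82e-04). The changes of gene07928 (-0.02), gene07930 (0.56) and gene07933 (-0.55) did not pass the test, and gene07929 was left out as dim. Over the 3 neighbourhoods, 13 of 18 models were measured. Of these, 7 were higher (53.8%, against 37.8% of all genes tested), 2 lower (15.4%, against 35.0%) and 4 not called. The higher ones include gene28406, gene34008, gene34010 and gene34011, which are on the study's list of aroma genes, chosen in part for being higher in red.

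The acyltransferases as a family did not move in one direction. Of 58 measured genes caught by keywords for BAHD acyltransferases, 21 were higher in red (36.2%, against 37.8% of all genes tested), 31 lower (53.4%, against 35.0%) and 6 did not pass the test, with a median of -1.10, or -1.18 without gene34009 and gene07931, against 0.04 for all genes tested. Among the 58 are 3 cytochrome P450 taxane hydroxylases, gene03355, gene03356 and gene12084, all called higher. Without them 18 of 55 were higher and 31 lower, with a median of -1.21, a count added after the values were seen. The 55 still include an entry described mainly as an ornithine decarboxylase, at least 70.2-fold higher in red. The 4 largest fitted changes were falls. They belonged to gene34068 (at least 909-fold lower, adjusted p = 3.15e-05), gene34065 (at least 523-fold, adjusted p = 9.51e-05), gene13221 (at least 143-fold, adjusted p = 9.74e-05) and gene28057 (at least 93.8-fold, adjusted p = 3.15e-05, a bound below the measured 101-fold rise of gene33976), each too dim on both red arrays to count as well above background. The descriptions of the first 3 include anthranilate N-benzoyltransferase, an enzyme that uses another acceptor than the alcohols of fruit esters. Those of gene34068 and gene34065 also give enzyme class 2.3.1.133, with a stronger match. The description of gene28057 names taxane and alcohol acyltransferases.

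A narrower set, the entries whose description names an alcohol acyltransferase, was looked at after the values were known and is given without a test. Of its 15 entries 13 were measured. Of these, 10 were higher (76.9%, against 37.8% of all genes tested) and 3 lower (23.1%, against 35.0%). Their median was 4.89, or 3.81 without the members. The highest were gene33976, at 6.85 and 6.85 in red and 0.24 and 0.13 in green (a rise of 6.66), and gene23453, at 6.50 and 6.52 in red and 0.01 and 0.07 in green (a rise of 6.47). The lower ones were gene28057, gene22293 (-4.40) and gene23705 (-3.57). Besides the members, higher ones such as gene33976, gene23453 and gene34008 are on the study's list of aroma genes. That list was chosen in part for being higher in red. The entry FaAAT3, the only strawberry-named acyltransferase that the naming rule found, rose by 4.72 from -4.81 and -4.96 in green to -0.24 and -0.09 in red (adjusted p = 4.86e-05).

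**Figure D5:**
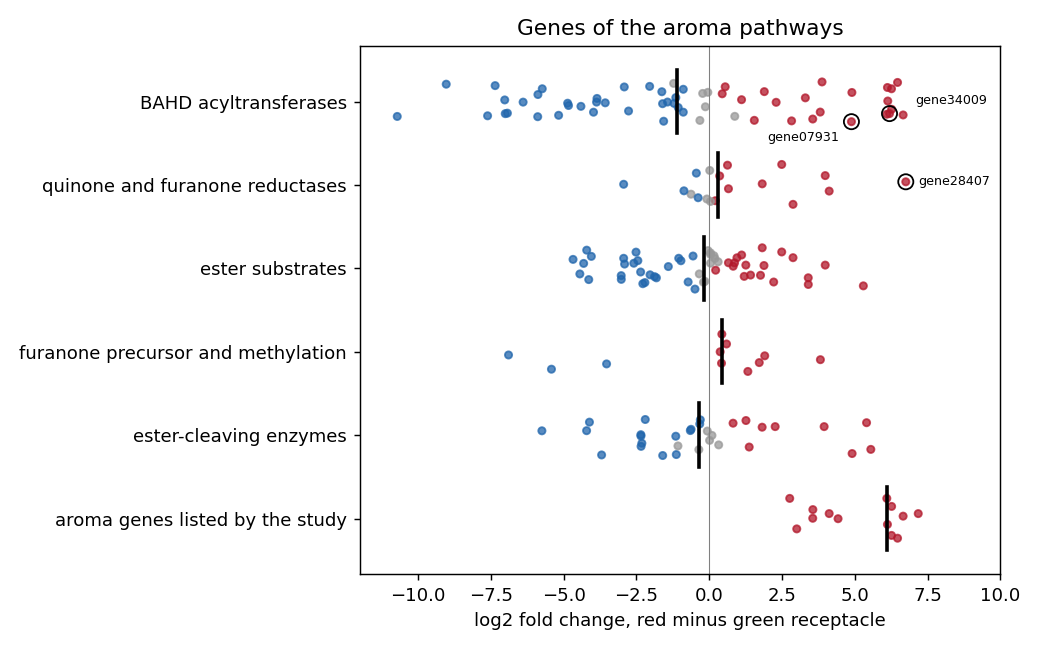
Log2 fold change between red and green receptacle (horizontal axis) of every measured gene in 6 groups, drawn as red points where called higher in red receptacle, blue where called lower and grey where not called. The height of a point within a group is arbitrary, black bars are group medians and circles mark gene28407, gene34009 and gene07931. The genes caught by the acyltransferase keywords spread from -10.7 to 6.66 around a median of -1.10, with both FaAAT models near the upper end.

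Genes that supply or break down esters were called in both directions. Of 54 measured genes caught by keywords for ester substrates (pyruvate decarboxylase, alcohol dehydrogenase, branched-chain aminotransferase, lipoxygenase and hydroperoxide lyase), 19 were higher, 25 lower and 10 not called, with a median of -0.17. The share higher was 35.2%, close to the 37.8% of all genes tested, and the share lower 46.3%, against 35.0%. The keywords also caught aldo-keto reductases, and 7 of the 54, gene10142 and gene23784 among them, are counted with the quinone and furanone reductases too. The largest change was that of gene00617, an aldo-keto reductase caught by the keywords (5.29, adjusted p = 3.79e-05 in limma). Next came the alcohol dehydrogenase-like gene30850 (-4.67, adjusted p = 1.04e-04), gene11941 (-4.44, adjusted p = 5.05e-05) and gene11942 (-4.31, adjusted p = 2.04e-04). For gene30850 and gene11941, enzyme class 1.1.1.53 is a stronger match than the alcohol dehydrogenase-like protein. The description of gene11942 also names tasselseed 2. Whether these genes supply alcohols for esters was not tested. Of 31 measured carboxylesterases, enzymes that can cleave esters, 9 were higher (29%), 16 lower (51.6%) and 6 not called, with a median of -0.35.

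The study's own list of aroma genes, chosen in part for being higher in red on such arrays, gave 13 other genes. All 13 were higher in red, by 2.77 (gene21391) to 7.18 (gene14837), with a median of 6.10, and since the list rests on the same contrast this count is a description only. The value of gene14837 rests on red samples that differ widely, with 0.88 in red 1 and 3.15 in red 2 (adjusted p = 0.0028). Its other genes with a rise above that of gene34009 were gene33976, gene23453, gene34008 and gene34010. The remaining genes were gene09934 (6.12), gene18229 (4.43), gene24674 (3.56, described as a cineole synthase) and gene22294 (3.56), beside gene34011, gene14266 and gene28406.

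The genes most like each entry were found by the Euclidean distance between their 4 centred log2 values, a measure over 4 samples that mostly follows the size of the change. Closest to gene28407 were FaATT1 (distance 0.21), gene30111 (0.28) and the thaumatin-like gene09812 (0.30). Since gene30111 was well above background on neither green array, its green values are only bounds and its distance cannot be read as likeness. The strawberry-named entry FaATT1 had levels of 8.83 and 9.02 in red and 2.18 and 2.12 in green. Closest to FaQR were gene23830 (0.11), described as a DNA-binding protein and well above background on only 1 of the 2 green arrays, the acyltransferase gene19766 (0.16) and gene10349 (0.22). Closest to gene34009 were gene20323 (0.09), described as a seed globulin, the neighbouring acyltransferase gene34011 (0.10) and the beta-glucosidase gene20643 (0.13). Closest to gene07931 were the carboxylesterase gene28611 (0.09), gene28014 (0.11) and gene08117 (0.11). Between the entries themselves, FaQR and gene07931 were the nearest pair (0.32) and FaQR and gene28407 were 1.85 apart.

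The study's matrix of RMA intensities, on a linear scale, gave the same order of the rises. For gene28407 it held 69985 and 96798 in red and 569 and 534 in green, a difference of 7.22 (adjusted p = 0.00101 in limma). For gene34009 it held 9914 and 9947 in red and 108 and 86.3 in green, a difference of 6.69 (adjusted p = 8.10e-04). The stages were again far apart for both. For FaQR it held 389544 and 493797 in red and 10593 and 10610 in green, a difference of 5.37 (adjusted p = 0.00103), and for gene07931 it held 19328 and 18468 in red and 494 and 431 in green, a difference of 5.36 (adjusted p = 7.94e-04). The median of all genes was shifted by 0.35 in this matrix, and relative to it the rises were 6.87 for gene28407, 6.34 for gene34009 and 5.02 for FaQR, with gene07931 close to FaQR. By increase the entries ranked farther down in this matrix than in the main fit. Among its 35116 genes the ranks were 208 for gene28407, 265 for gene34009, 529 for FaQR and 533 for gene07931.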

How the data were processed

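The intensity deposited for each spot is Agilent Feature Extraction 10.7.3.1 processed signal, background-subtracted and linear per the file headers. The authors also deposited an intensity matrix of the same arrays made by RMA, on a linear scale. Log2 processed signal was expressed against each array's own 75th percentile. Control spots and spots marked as outliers were left out, spots of a probe averaged, and probes kept if at least 2 of the 4 arrays showed them well above background. The 25018 genes were tested with lmFit and eBayes of limma 3.58.1 (R 4.3.3), two-sided, with Benjamini-Hochberg adjustment over all genes. With 2 residual degrees of freedom, precision borrows from other genes (1.81 prior degrees of freedom), and 2 arrays a stage limit it. The procedure was checked on simulated data.

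Where a gene was not well above background in a stage, the fold is a lower bound against the higher of its own signal and the dimmest signal well above background. Members and lists were chosen with earlier results of these data known. Genes named are the members, the 3 genes nearest to each in pattern, models numbered within 3 of a member, strawberry-named aroma entries, the study's aroma list, and the 4 largest changes of each keyword list past the test. Keywords can catch genes of other function. Alternatives were the RMA matrix, quantile and median scaling, normexp correction (offset 50, of the median spot signal in place of the mean signal first planned), other probe filters, other limma settings, the methods' t-test and threshold, blocks and leaving out samples. Genome positions and probe sequences were not used here.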

Additional observations from a re-analysis of the deposited data

How the results depend on the processing

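The 4 aroma entries stayed higher in red and past the threshold under all 17 alternatives, with differences of 4.73 to 5.37 for FaQR, 6.51 to 7.22 for gene28407, 5.68 to 6.69 for gene34009 and 4.73 to 5.36 for gene07931. For the methods' t-test and the study's threshold the p was not adjusted over genes, whereas for the other alternatives it was. The shifts between pairs kept their sign. Without one sample at a time the lowest and highest differences were 4.73 and 5.08 for FaQR, 6.51 and 6.99 for gene28407, 6.05 and 6.33 for gene34009, and 4.80 and 4.97 for gene07931. A stage left with 1 sample was then assumed to vary like the other. Some of the 17 alternatives change only the test or the probe filter and leave the 4 differences as they were. The slide block repeats the fit without red 1.

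The counts over all genes moved by over 1.5 times in 3 cases. Genes lower went from 8759 of 25018 tested to 5815 of 35116 tested in the RMA matrix. The cause of this move was not tested. Under the study's threshold, which also asks for a log2 change above 2, the counts went from 9448 to 1652 higher and from 8759 to 2985 lower. The methods' t-test called 7744 higher and 7141 lower after Benjamini-Hochberg adjustment. The median change of all genes was 0.35 in the RMA matrix, 0.49 with median scaling, 0.18 with quantile normalization, -0.21 after normexp correction and -0.18 without a filter.

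With the replicate number as a block, 9472 genes were higher and 8847 lower and no call of an aroma entry changed (adjusted p of 8.78e-04 to 0.00112). The deviations of same-numbered red and green samples correlated at 0.078 over genes, and the labels tie the numbers to nothing else, so the numbers were not taken as pairs. With the slide as a block only red 2 stands against the green samples, and the differences were 5.08 for FaQR, 6.99 for gene28407, 6.20 for gene34009 and 4.86 for gene07931. The green signal of gene34009, 6.27 and 5.07 times the local background, limits how well its fold is known.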

Other observations

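Among the carboxylesterases, the genes with the largest changes lie close together in number and did not move the same way. The level of gene28508 rose by 5.55, from -0.78 and -0.63 in green to 4.89 and 4.81 in red (limma, adjusted p = 3.50e-05). Similar rises were seen for gene28615 (5.41, adjusted p = 3.20e-05) and gene28611 (4.91, adjusted p = 3.33e-05). By contrast, gene28538 fell by 5.74, from 2.19 and 2.18 in green to -3.45 and -3.67 in red (adjusted p = 4.21e-05). Close relatives on the array may share transcripts, so their separate values are uncertain.

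A pair of strawberry-named entries outside the naming rule, FaATT1 and FaATT2, were looked at after FaATT1 appeared as the gene most like gene28407. FaATT2 had log2 levels of 7.39 and 7.49 in red and 2.30 and 2.28 in green, a rise of 5.15 (limma, adjusted p = 3.20e-05), and FaATT1 rose by 6.78 (adjusted p = 3.20e-05). The array gives neither a description. Their names are close to FaAAT1 and FaAAT2, and whether they read the same transcripts as gene34009 and gene07931 was not tested.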
